A study of Rattus norvegicus with 22 samples.

Results

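The genes examined here are 9 interferon response genes, Stat2, Irf1, Irf7, Irf9, Mx1, Mx2, Ifit3, Rsad2 and Ifitm3, which were taken by symbol from a count table of 17172 gene names. All 9 were in the table, and all 9 were among the 12875 genes with enough reads to be tested. They were chosen with earlier results of these data known, so shares of all tested genes are given beside them for reference and not as a test. The RNA was from the hippocampus on the injured side of 14 adult male Sprague-Dawley rats. There were 4 groups: sham at day 1 (n = 2), lateral fluid percussion traumatic brain injury (TBI) at day 1 (n = 4), sham at day 14 (n = 4) and TBI at day 14 (n = 4). Every rat was anesthetized and had a craniectomy over the right hemisphere, and sham rats differed from TBI rats in that no pressure pulse was delivered. Each library came from 1 rat and from whole tissue, so a change in the number of cells of a type and a change in RNA per cell cannot be told apart.

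Interferons are secreted proteins that alert cells to infection and tissue damage. Type I interferons bind a receptor made of IFNAR1 and IFNAR2, and the kinases JAK1 and TYK2 then phosphorylate STAT2, which joins IRF9 in the complex ISGF3. ISGF3 binds the interferon-stimulated response element (ISRE) of its target genes, while interferon gamma acts through the gamma-activated site (GAS). In brain, microglia, astrocytes, endothelial cells and neurons can all respond to interferon. Among the 9 genes, Stat2 and Irf9 encode parts of ISGF3, and Irf1 and Irf7 encode transcription factors that interferon induces. Mx1 and Mx2 encode dynamin-like antiviral GTPases, Ifit3 a partner of the RNA-binding IFIT proteins, Rsad2 the radical SAM enzyme viperin, and Ifitm3 a membrane protein that hinders the entry of viruses.

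Of the 9 genes, 8 had a promoter sequence in RefSeq (build GRCr8), which runs from 250 bases before to 50 bases after the annotated start site, and Mx2 had none. An ISRE core was searched on both strands as GAAA, any 2 bases and GAAA again, and a GAS core as TTCNNNGAA, which reads the same on both strands. The ISRE core was present in 4 of the 8 promoters, those of Irf7, Ifit3, Rsad2 and Ifitm3, and in 3.92% of all 33469 promoters of that length. The GAS core was present in 3 of the 8, those of Irf1, Irf9 and Ifitm3, and in 8.87% of all promoters. Among 89 promoters of other interferon pathway genes, 47.2% held the ISRE core and 24.7% the GAS core, so neither core is particular to these genes. Neither set of letters was found in the windows of Stat2 and Mx1. The stretches that hold a match are shown 5′ to 3′ on the strand of the gene, with the matched letters in capitals, because they separate the genes with an ISRE core from those with a GAS core only.
Irf7 (GRCr8 chr1:205800063-205800112, minus strand): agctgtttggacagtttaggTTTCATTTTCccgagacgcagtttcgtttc
Ifit3 (GRCr8 chr1:241527262-241527311, plus strand): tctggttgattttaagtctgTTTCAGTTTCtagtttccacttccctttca
Rsad2 (GRCr8 chr6:48788238-48788287, minus strand): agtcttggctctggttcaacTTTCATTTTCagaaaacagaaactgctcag
Ifitm3 (GRCr8 chr1:205541763-205541822, minus strand): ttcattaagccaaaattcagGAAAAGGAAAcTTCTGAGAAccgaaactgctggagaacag
Irf1 (GRCr8 chr10:38417773-38417821, plus strand): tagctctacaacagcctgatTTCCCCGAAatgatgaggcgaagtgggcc
Irf9 (GRCr8 chr15:33065717-33065765, plus strand): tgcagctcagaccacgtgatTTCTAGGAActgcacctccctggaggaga

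The matches began between 33 and 147 bases before the start site, and in Ifitm3 the ISRE core, which began 44 bases before it, and the GAS core, which began 33 bases before it, lay 1 base apart. These are matches of letters and were not tested for binding.

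**Figure D1:**
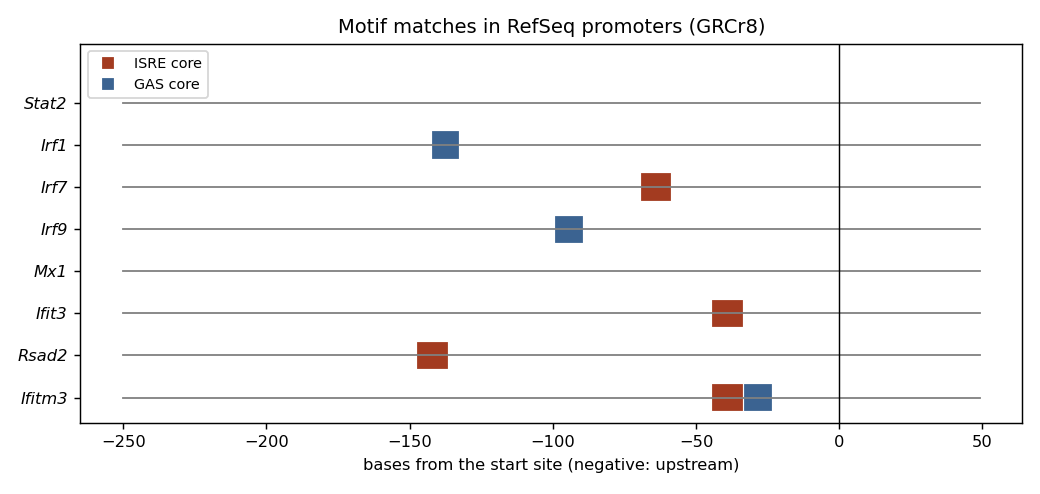
Position of the ISRE and GAS cores in the 8 promoters, in bases from the annotated start site (vertical line). Grey lines are the windows searched, boxes are matches, and the windows of Stat2 and Mx1 hold none.

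Levels are given as CPM, counts scaled to the library size with edgeR's TMM factors, and total counts were 17183319 to 23743703 per library at day 1 and 15065540 to 19781459 at day 14. Changes are log2 fold changes from edgeR's quasi-likelihood test over all 4 groups, two-sided, with p-values adjusted by the Benjamini-Hochberg method over the 12875 genes and a threshold of 0.05. All 10 listed markers of hippocampal neurons were detected, with summed levels of 2980 to 9600 CPM over the 14 libraries. Of these markers, 5 fell at day 1, next to 7.93% of all tested genes. Markers of choroid plexus stood apart in 3 libraries: their summed level was 8710 CPM in sham day 1 replicate 1, 1550 and 7620 CPM in TBI day 14 replicates 2 and 3, and at most 22.4 CPM in every other library.

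At day 1, 4 of the 9 genes rose after TBI (Irf1, Irf9, Ifit3 and Ifitm3), 0 fell, and 5 did not pass the test. All 9 fold changes were positive, with a median log2 fold change of 1.34 against −0.015 over all tested genes. Among all tested genes, 11.2% were called higher and 7.93% lower at day 1. Every TBI sample lay above both sham samples for 7 of the 9, all except Mx1 and Mx2, as was the case for 16.7% of all tested genes.

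Ifitm3 had the largest increase of the 9 genes at day 1. Its level was 7.49 and 2.44 CPM in the sham day 1 samples and 58.2, 65.3, 58.4 and 45.2 CPM in the TBI day 1 samples. The groups were far apart, and the sham samples differed from each other more than the TBI samples did in relative terms. The log2 fold change was 3.52 (SE 0.39, edgeR adjusted p = 3.48e-05), or 11.5-fold. Ifit3 stood at 3.23 and 1.75 CPM in sham and at 13.6, 15.9, 7.34 and 6.45 CPM in TBI, with replicates 1 and 2 above replicates 3 and 4. On the log2 scale the increase was 2.12 (SE 0.59, edgeR adjusted p = 0.0219).

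Among the transcription factors, Irf1 and Irf9 rose at day 1. Irf1 was at 12.02 and 8.44 CPM in sham and at 29.1, 40.2, 22.8 and 18.3 CPM in TBI. The lowest TBI sample was above the higher sham sample, and the log2 fold change was 1.43 (SE 0.27, edgeR adjusted p = 0.00228). Irf9 was at 26.7 and 23.2 CPM in sham and at 51.2, 60.2, 44.9 and 48.4 CPM in TBI, a tight increase in every injured rat with a log2 fold change of 1.04 (SE 0.20, edgeR adjusted p = 0.00242). Stat2, which pairs with Irf9 in ISGF3, stood at 53.6 and 54.0 CPM in sham and at 88.7, 79.9, 75.4 and 59.4 CPM in TBI. The 2 groups did not overlap, and its log2 fold change of 0.50 (SE 0.17, edgeR adjusted p = 0.05002) lay just outside the threshold. Without TBI day 1 replicate 4, the lowest of the 4, it was 0.60 (adjusted p = 0.0126), and DESeq2 gave 0.48 (adjusted p = 0.0308). In 13 of 16 alternative fits Stat2 was not called, and over the 16 its values ran from 0.31, against sham day 14, to 0.60, with adjusted p up to 0.22. Irf7 was at 5.87 and 3.64 CPM in sham and at 8.56, 12.01, 8.76 and 8.64 CPM in TBI. Its log2 fold change of 1.00 (SE 0.38) did not pass the test (edgeR adjusted p = 0.0792).

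The remaining antiviral effectors were uneven among the injured rats at day 1. Mx1 was at 4.69 and 3.74 CPM in sham and at 4.51, 18.6, 15.1 and 4.30 CPM in TBI, so that TBI replicates 1 and 4 lay within the sham range and replicates 2 and 3 far above it. Mx2 was at 24.9 and 6.27 CPM in sham and at 18.6, 47.1, 33.01 and 51.0 CPM in TBI, with wide spread in both groups. Rsad2 was at 3.23 and 2.21 CPM in sham and at 3.74, 22.6, 4.13 and 6.13 CPM in TBI, where replicate 2 alone was far above the rest. The log2 fold changes of Mx1, Mx2 and Rsad2 were 1.34, 1.27 and 1.76 (SE 0.72, 0.66 and 0.85), and none of the 3 passed the test (edgeR adjusted p = 0.203, 0.191 and 0.16).

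**Figure D2:**
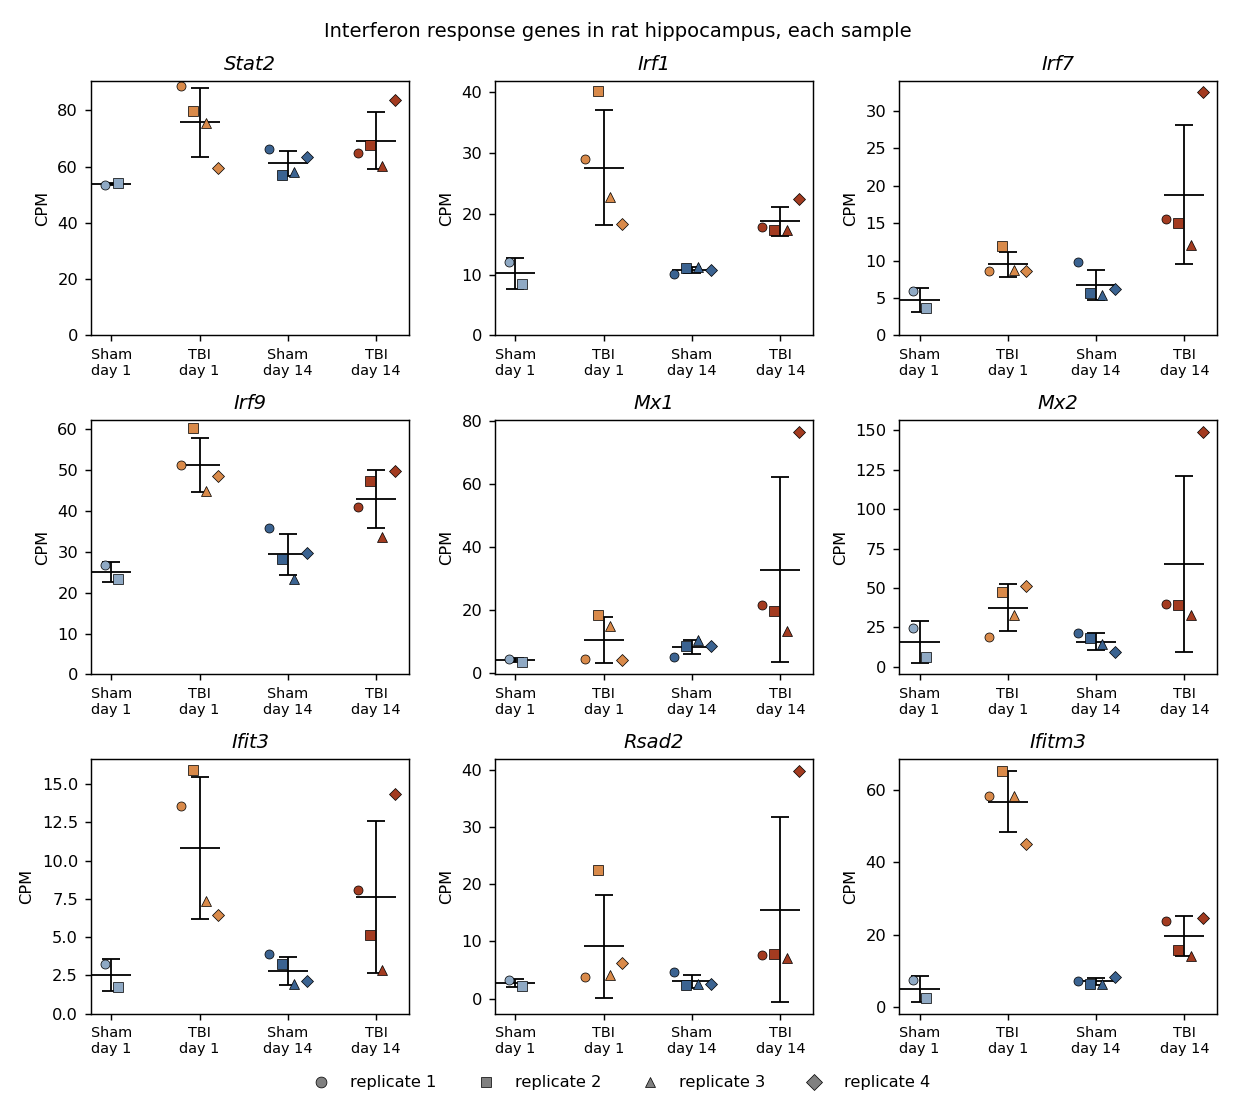
CPM of each gene in each of the 14 samples (symbols give the replicate), with the mean (horizontal line) and SD (error bars) of each group. TBI day 14 replicate 4 is the highest of its group in all 9 panels.

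The calls of Irf1 and Ifit3 at day 1 moved with the fit, and each was lost in 2 of 16 alternatives. Without sham day 1 replicate 1, the one with choroid plexus markers, the same 4 genes passed, and the log2 fold change of Ifitm3 was 4.53. Without replicate 2, Ifitm3 and Irf9 alone passed, with log2 fold changes of 2.92 and 0.94, while Irf1 and Ifit3 had 1.197 and 1.74 (edgeR adjusted p = 0.051 and 0.214). Against sham day 14, the baseline of the study for its trajectories, the same 4 genes of TBI day 1 passed, where 46% of all tested genes differed. In both fits without a sham day 1 rat the remaining sham day 1 rat was assumed to vary like the other groups.

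At day 14, 4 of the 9 genes were higher in TBI (Irf1, Irf7, Mx2 and Ifitm3) and 0 were lower, where 4.07% of all tested genes were called higher and 0.365% lower. All 9 fold changes were again positive, with a median log2 fold change of 1.45 against −0.031 over all tested genes. The TBI samples lay above every sham sample for 6 of the 9 genes, all except Stat2, Irf9 and Ifit3, compared with 9.13% of all tested genes. Irf1 and Ifitm3 passed at both days.

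Irf7, which amplifies the type I interferon response, was at 9.77, 5.65, 5.46 and 6.26 CPM in sham day 14 and at 15.6, 15, 12.1 and 32.5 CPM in TBI day 14. The lowest injured rat was above the highest sham rat, and the log2 fold change was 1.47 (SE 0.30, edgeR adjusted p = 0.00766). Ifitm3 was at 7.34, 6.43, 6.38 and 8.44 CPM in sham and at 23.9, 15.7, 14.1 and 24.7 CPM in TBI, a log2 fold change of 1.45 (SE 0.28, edgeR adjusted p = 0.00461). Irf1 was narrow in sham, at 10.1, 11.0, 11.3 and 10.7 CPM, and stood at 17.8, 17.4, 17.4 and 22.4 CPM in TBI. Its log2 fold change was 0.80 (SE 0.21, edgeR adjusted p = 0.0409), and this call was lost in 11 of 17 alternative fits, with values between 0.71 and 0.85.

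Mx2 was at 21.5, 18.5, 14.4 and 9.09 CPM in sham day 14 and at 39.8, 39.0, 32.6 and 149.1 CPM in TBI day 14. Its log2 fold change was 2.04 (SE 0.53, edgeR adjusted p = 0.0389), and 1.23 without TBI replicate 4 (adjusted p = 0.194). This call was lost in 9 of 17 alternative fits. Mx1, at 5.31, 8.83, 10.6 and 8.71 CPM in sham and 21.6, 19.9, 13.6 and 76.8 CPM in TBI, had a log2 fold change of 1.98 (SE 0.55, edgeR adjusted p = 0.0598). Rsad2, at 4.59, 2.28, 2.54 and 2.56 CPM in sham and 7.56, 7.73, 7.16 and 39.9 CPM in TBI, had 2.39 (SE 0.67, edgeR adjusted p = 0.0604). For both genes all 4 TBI samples were above all 4 sham samples, and the spread among the injured rats was set by replicate 4. Mx1 and Mx2, Ifit3 and its neighbours in sequence, and Ifitm1 to Ifitm3 belong to gene families with similar sequences, so reads could have been split between copies in a way the table does not show.

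Irf9, Ifit3 and Stat2 overlapped between the groups at day 14. Irf9 was at 35.8, 28.3, 23.4 and 29.8 CPM in sham and at 40.9, 47.2, 33.6 and 49.7 CPM in TBI, where TBI replicate 3 lay within the sham range. Ifit3 was at 3.87, 3.24, 1.95 and 2.12 CPM in sham and at 8.09, 5.16, 2.88 and 14.4 CPM in TBI, again with TBI replicate 3 inside the sham range. Their log2 fold changes were 0.55 (SE 0.155) and 1.45 (SE 0.45), which did not pass the test (edgeR adjusted p = 0.0634 and 0.103). Stat2, at 57.2 to 66.5 CPM in sham and 60.4 to 83.8 CPM in TBI, had 0.18 (SE 0.13, edgeR adjusted p = 0.708).

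**Figure D3:**
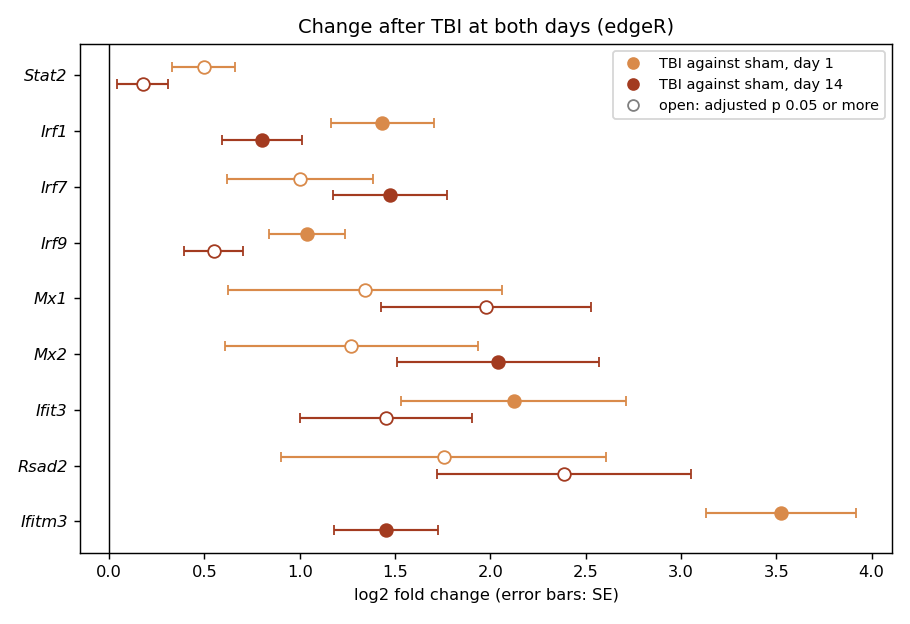
Log2 fold change of TBI against sham for each gene at day 1 and day 14, with SE as error bars. Filled points passed the test at an adjusted p-value under 0.05 and open points did not, with Ifitm3 at day 1 (3.52) the farthest from 0.

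The number of genes called at day 14 moved with the fit. It was 2 (Irf7 and Ifitm3) with limma-voom, the tool of the study, and in each of the fits without sham day 14 replicates 2, 3 or 4 or TBI day 14 replicate 4. It was 7 with DESeq2, with the 8 samples of day 14 alone, and without TBI day 14 replicate 3. Irf7 and Ifitm3 passed in every one of the 17 alternative fits.

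TBI day 14 replicate 4 had the highest level of its group for 9 of the 9 genes, while it was the highest of its group for 25.0% of all tested genes. Relative to the mean of the other 3 injured rats, its level was 5.33-fold for Rsad2, 4.19-fold for Mx1, 4.01-fold for Mx2, 2.67-fold for Ifit3 and 2.29-fold for Irf7. For Ifitm3, Stat2, Irf1 and Irf9 the ratio was 1.38, 1.30, 1.28 and 1.22. The other 3 rats were themselves above sham, with mean levels 2.50-fold (Rsad2), 2.20-fold (Mx1), 2.34-fold (Mx2) and 2.1-fold (Irf7) those of sham day 14. At day 1, TBI replicate 2 had the highest level of its group for 7 of the 9 genes, against 19.6% of all tested genes, and its Rsad2 level was 4.84-fold the mean of the other 3. With both of these rats left out, 4 genes were called at day 1 (Irf1, Irf9, Ifit3 and Ifitm3) and 4 at day 14 (Irf1, Irf7, Rsad2 and Ifitm3), where the log2 fold change of Rsad2 was 1.33 (edgeR adjusted p = 0.0202). Leaving out TBI day 14 replicate 4 alone, Rsad2 had the same value with an adjusted p of 0.345. The sham groups also had a leading rat. Sham day 1 replicate 1 was the higher of its 2 samples for 8 of the 9 genes, against 52.2% of all tested genes. Sham day 14 replicate 1 was the highest of its group for 6 of the 9, against 28.2%.

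**Figure D4:**
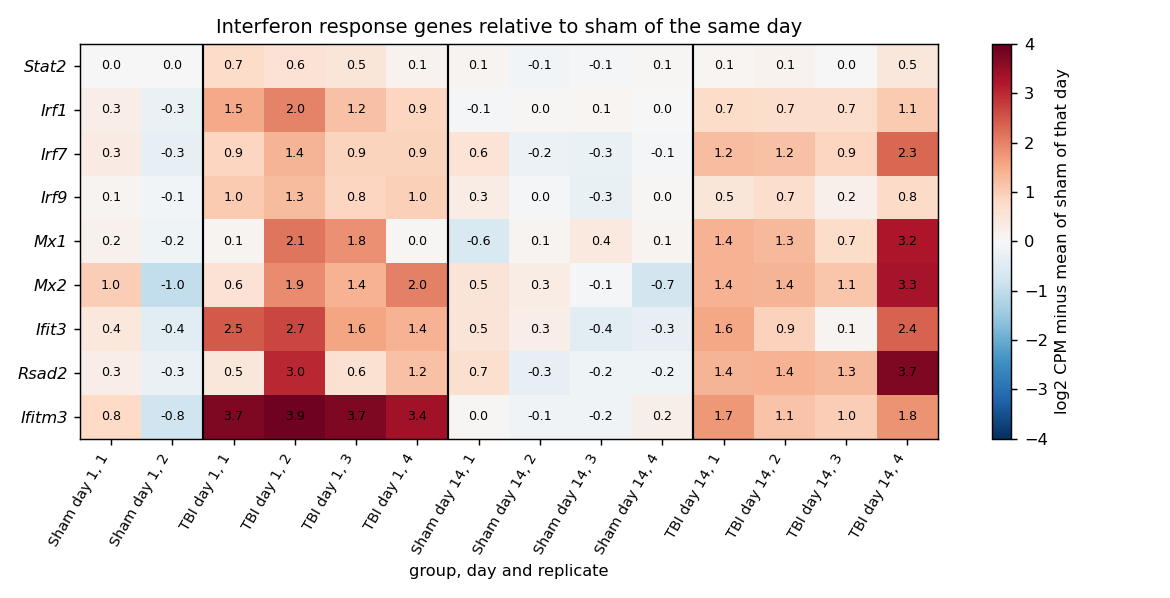
Log2 CPM of each gene in each sample minus the mean of the sham samples of the same day (color scale and printed values). Rsad2, Mx2 and Mx1 stand 3.2 to 3.7 above sham in TBI day 14 replicate 4, and Ifitm3 stands 3.4 to 3.9 above sham in all 4 TBI day 1 samples.

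Some markers of other cell types also changed after TBI, and their part in the changes of the 9 genes was not tested. The calls in each list stand next to 11.2% of all tested genes called higher and 7.93% lower at day 1. At day 14 these shares were 4.07% and 0.365%. Of 10 microglia markers, all detected, 2 rose and 2 fell at day 1 and 8 rose at day 14, and their summed level spanned 476 to 729 CPM (sham day 1), 738 to 839 CPM (TBI day 1), 501 to 659 CPM (sham day 14) and 1070 to 1870 CPM (TBI day 14). Within TBI day 14, replicate 4 had the highest sum of microglia, monocyte and macrophage, neutrophil, T and NK cell, astrocyte and oligodendrocyte markers. Its counts of Csf3r (490), Mmp8 (20) and Cd4 (1298) were the highest of that group. Other markers of the neutrophil and T and NK cell lists did not lead in it. Its Cd3e count was 280, against 269 to 381 in the other injured rats, and its S100a9 count was 8, against 8 to 14. Of 10 monocyte and macrophage markers, 9 were in the table, of which 6 rose at day 1 and 3 at day 14. Their sum spanned 147 to 208 CPM (sham day 1), 805 to 1150 CPM (TBI day 1), 147 to 196 CPM (sham day 14) and 335 to 579 CPM (TBI day 14). Chi3l1 and Lyz2 had the highest counts of this list in TBI day 1, 5191 to 12717 and 3983 to 9713. In the sham rats Chi3l1 made up most of the sum, with 2507 and 2035 counts at day 1 and 1791 to 2735 at day 14. In TBI day 14 it again had the highest counts, 3743 to 4782. The sum is therefore in large part the level of 1 gene. Lyz2, Cd68 and Msr1 were those that rose at day 14, while Cd163, Mrc1 and Chi3l1 rose at day 1 only. Of 8 detected astrocyte markers, Gfap, an intermediate filament gene of reactive astrocytes, rose at each day, by 3.10 and 2.06 on the log2 scale (edgeR adjusted p = 2.02e-05 and 7.26e-05), and the other 7 did not pass, with values of −0.68 to 0.25 at day 1 and −0.31 to 0.60 at day 14. The astrocyte sum was 6670 and 10700 CPM in the sham rats of day 1 and 13700 to 20100 CPM after injury. At day 14 it was 5810 to 7140 CPM in sham and 9440 to 13700 CPM in TBI. Gfap carried most of the rise in this sum at each day. At day 1 its counts were 20653 and 28912 for the sham rats, against 172124 to 284829 for the injured ones. At day 14 they were 22129 to 32808 for the sham rats, against 85717 to 131950 for the injured ones. Of 10 neutrophil markers, 6 were tested and 4 rose at day 1, with a sum of 4.43 to 10.2 CPM in sham day 1 and 29.6 to 79.8 CPM in TBI day 1, the highest in replicate 2. At day 14 that sum was 5.57 to 7.67 CPM in sham and 15.6 to 27.8 CPM in TBI. Csf3r was the 1 neutrophil marker that rose at day 14, and it made up most of the sum. It had 261 to 490 counts in the injured rats of that day, the highest in replicate 4, against 72 to 112 in their shams. Every other marker of the list had at most 20 counts in those injured rats, with at most 4 for S100a8 and 14 for S100a9. Elane, a neutrophil granule protease, had 1 to 16 counts in the TBI day 1 samples and 0 in every other sample. Of 10 T and NK cell markers, 4 were tested, of which 2 rose at day 1 and 1 at day 14. Their sum spanned 3.97 to 18.5 CPM (sham day 1), 8.09 to 21 CPM (TBI day 1), 12.3 to 27.4 CPM (sham day 14) and 41 to 83.9 CPM (TBI day 14). Cd4, which microglia and macrophages of the rat also express, had 103 to 120 counts in the sham day 14 libraries and 413 to 1298 in those of TBI day 14. Cd2 and Cd8a were the markers that rose at day 1, Cd2 from 3 and 0 counts in sham to 25, 152, 68 and 54 in TBI, and Cd8a from 4 and 3 counts to 48, 53, 146 and 88. Of the T cell receptor complex, Cd3e had 3 to 381 counts over the 14 libraries and passed the test at neither day, and Cd3d and Cd3g had at most 5 and 6 counts in any library.

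The difference of the TBI effect between the days was tested for each of the 9 genes and passed for Ifitm3 alone. The TBI effect was larger at day 1 than at day 14 for Ifitm3, by 2.07 on the log2 scale (SE 0.45, adjusted p = 0.01995 by edgeR for the difference itself), and 3.68% of all tested genes passed that test, 2.24% with a positive and 1.44% with a negative difference. Without sham day 1 replicate 2 this difference was 1.47 (adjusted p = 0.0575). For the other 8 genes the difference did not pass the test. It was positive (larger at day 1) for Ifit3, Irf1, Irf9 and Stat2, with values of 0.67, 0.63, 0.49 and 0.32 (SE 0.71, 0.33, 0.25 and 0.21). It was negative (larger at day 14) for Mx2, Mx1, Rsad2 and Irf7, with values of −0.77, −0.64, −0.63 and −0.47 (SE 0.81, 0.87, 1.03 and 0.47), and for Mx1, Mx2 and Rsad2 the sign turned without TBI day 14 replicate 4.

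Within injured rats, TBI day 14 was compared with TBI day 1 directly. Irf7 was higher at day 14 by 0.98 (SE 0.29, edgeR adjusted p = 0.0157) and Mx1 by 1.63 (SE 0.54, adjusted p = 0.0272), where 17.6% of all tested genes were higher. Ifitm3 fell by 1.54 (SE 0.27, edgeR adjusted p = 0.000462) and Irf1 by 0.56 (SE 0.21, adjusted p = 0.0434), where 21.9% of all tested genes were lower. With 1 rat left out at a time, 2 to 4 of the genes were called, Ifitm3 each time. Irf7 was not called without TBI day 14 replicate 4, Mx1 was not called without TBI day 1 replicate 1 or 4 or TBI day 14 replicate 4, and Irf1 was not called without TBI day 1 replicate 1 or 2 or TBI day 14 replicate 1, 2 or 3.

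Between the sham groups, 0 of the 9 genes passed the test by edgeR, and 0 had an unadjusted p-value under 0.05, while 19.1% of all tested genes differed, 11.3% higher and 7.88% lower in sham day 1. Limma-voom and DESeq2 also called 0. All 9 were lower in sham day 1 than in sham day 14 by log2 fold change, from −0.029 (Mx2, SE 0.64) to −0.99 (Mx1, SE 0.71). Without sham day 1 replicate 1, 1 gene passed, Ifitm3.

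The rest of the pathway was read from a list of 117 names, of which 86 were in the table and 78 were tested. This list too was chosen with earlier results of these data known, so the shares beside its counts are for reference only. Of the 78, 37 rose and 0 fell at day 1, and 39 rose and 0 fell at day 14, next to the 11.2% and 4.07% of all tested genes called higher. The median over the 78 was 0.98 (day 1) and 1.12 (day 14) on the log2 scale, and 26 genes rose at both days. With genes whose sham samples were all at 0 set to a lower bound, these medians were 0.98 and 1.08. Without sham day 1 replicate 2, 16 rose at day 1, and with the 6 samples of that day alone 18 did.

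Interferon transcripts themselves were at or near 0. Of the 6 ligand genes in the table, Ifna1, Ifna2, Ifnk and Ifng had 0 counts in all 14 libraries. Ifnb1 had a total of 1 count, with 13 libraries at 0, and Ifna4 had at most 5 counts in any library. A count of 0 allows up to 3 counts, or 0.122 to 0.199 CPM depending on the library, which covers counting error only.

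Among 5 receptor genes, Ifngr1, the ligand-binding chain for interferon gamma, rose at both days, with log2 fold changes of 0.85 (SE 0.19, edgeR adjusted p = 0.00581) and 0.97 (SE 0.15, adjusted p = 0.000794). Il10rb, a chain shared by receptors for interferon lambda and interleukin 10, also rose at both days, by 1.203 and 1.106 (edgeR adjusted p = 0.00294 and 0.00188). Ifnar1, Ifngr2 and Ifnlr1 passed at neither day, with values of 0.02 to 0.47. Of the kinases, Jak2 rose at day 1 by 0.73 (SE 0.16, edgeR adjusted p = 0.00681). Jak1 and Tyk2 passed at neither day.

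Of 12 sensors and adaptors, 2 rose at day 1 and 6 at day 14, next to 11.2% and 4.07% of all tested genes called higher. Tlr7, an endosomal sensor of single-stranded RNA, and Myd88, its adaptor, rose at both days, Tlr7 by 1.41 and 1.58 and Myd88 by 1.67 and 0.83 (adjusted p of 0.0121 or less by edgeR in each case). Zbp1, a sensor of Z-form nucleic acid, had a mean of 0.29 CPM in sham day 14 and 5.26 CPM in TBI day 14, with a log2 fold change of 4.20 (SE 0.51, edgeR adjusted p = 0.000127), and 1.34 at day 1 (adjusted p = 0.139). The difference of its effect between the days was −2.86 (edgeR adjusted p = 0.0652). Tlr3, which senses double-stranded RNA, rose by 1.46 at day 14 (SE 0.27, edgeR adjusted p = 0.00427) and had −0.22 at day 1 (adjusted p = 0.659), and these effects differed by −1.68 (adjusted p = 0.0375). Its sham level was 12.7 and 6.69 CPM at day 1, the higher in replicate 1, and 4.59 to 5.79 CPM at day 14. Against sham day 14, Tlr3 was also higher in TBI day 1, by 0.73 (edgeR adjusted p = 0.0402), where 25% of all tested genes were higher. Dhx58 and Tmem173, which encodes STING, also rose at day 14, by 1.38 and 1.58 (edgeR adjusted p = 0.00874 and 0.00252). Ddx58, Ifih1, Mavs, Tlr9, Tbk1 and Ikbke passed at neither day, with values of −0.21 to 1.39.

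Of 39 other antiviral effectors, 21 rose at day 1 and 22 at day 14, against the same 11.2% and 4.07% of all tested genes. Ifit1, a cap-binding partner of Ifit3, was at 0 counts in both sham rats of day 1, while the injured rats had 36, 107, 76 and 21 counts. With 3 counts per library taken as the limit in sham, this was an increase of at least 17.7-fold. At day 14 it had at most 1 count in any sample. Ifitm1, a relative of Ifitm3, rose by 3.27 at day 1 and 2.16 at day 14 (edgeR adjusted p = 0.00366 and 0.0281), and Oas2, which makes the activator of RNase L, rose by 2.69 at day 14 (adjusted p = 0.00264). Of the guanylate-binding proteins and related GTPases, 4 of 4 rose at day 1 and 3 of 4 at day 14. Gbp2 had a mean of 7.61 CPM in sham day 1 and 79.9 CPM in TBI day 1, where its range was 34.3 to 184 CPM, and it rose by 3.40 (SE 0.69, edgeR adjusted p = 0.00362). Igtp and Irgm rose at both days, by 1.53 and 1.17 and by 0.96 and 1.29.

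Among the remaining roles, Irf8, a transcription factor of myeloid cells, rose by 1.51 at day 1 and 2.41 at day 14 (edgeR adjusted p = 0.00218 and 1.52e-05), and Irf5 rose by 1.14 at day 14 (adjusted p = 0.000721). The chemokine gene Cxcl11 rose at both days, by 2.31 and 2.61 (edgeR adjusted p = 0.0371 and 0.034), and Cxcl10 rose at day 1 by 4.55 (adjusted p = 0.0469), with 24.8 CPM in TBI replicate 2 and 1.21 to 1.61 CPM in the other TBI samples. Socs3, an inhibitor of JAK signaling that many cytokines induce, rose by 5.95 at day 1 (SE 0.59, edgeR adjusted p = 1.42e-05) and by 2.09 at day 14 (adjusted p = 0.00647), and these effects differed by 3.86 (adjusted p = 0.0084). The phosphatase gene Ptpn6 rose at both days, by 2.16 and 1.82 (edgeR adjusted p = 8.93e-06 and 8.56e-06), and Ptpn2 rose at day 1 by 0.83 (adjusted p = 0.00279).

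**Figure D5:**
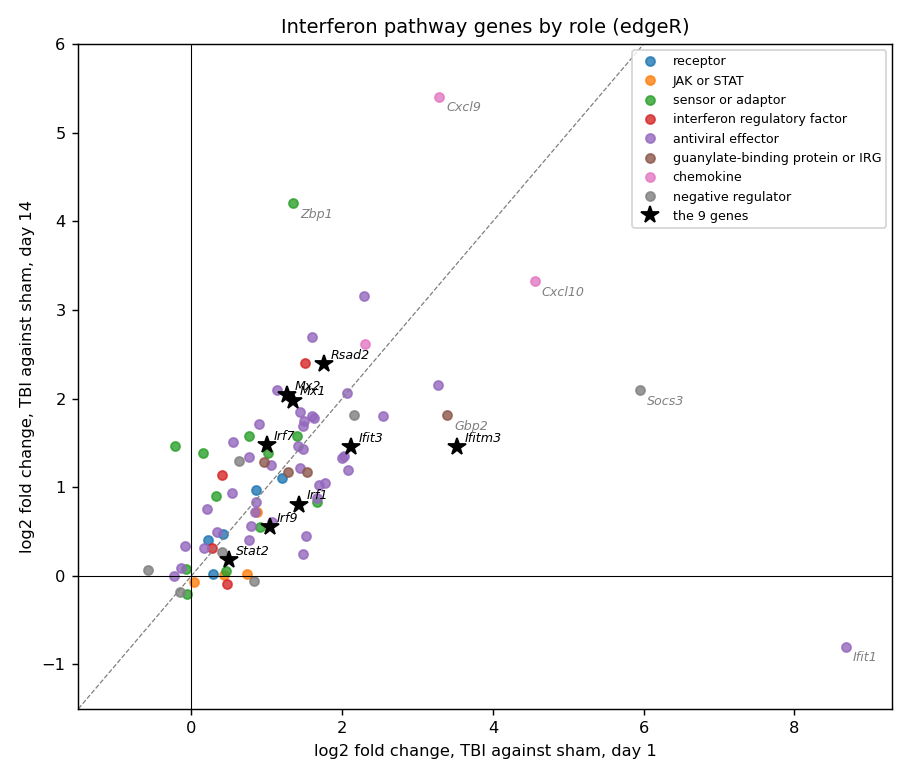
Log2 fold change at day 1 (horizontal axis) against day 14 (vertical axis) for the 9 genes (stars) and 78 other interferon pathway genes colored by role, where the dashed line marks equal change. The values drawn for Ifit1 at day 1 and Cxcl9 at day 14 are fitted against sham samples with 0 counts and have no fixed size.

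The 5 genes outside the 9 whose log2 CPM was closest to the mean of the 9, each gene scaled to unit variance, over the 14 samples were Igtp (Pearson r = 0.973), Pygl (0.970), Oasl2 (0.963), Tap1 (0.959) and Itgb2 (0.948). Igtp, Oasl2 and Tap1 are on the interferon list, Pygl encodes the liver form of glycogen phosphorylase, and Itgb2 encodes the beta chain of leukocyte integrins. The same 14 libraries and the same group differences enter every one of these values. Igtp was at 7.005 and 3.504 CPM in sham day 1, 9.85 to 22.8 CPM in TBI day 1, 5.08 to 6.49 CPM in sham day 14 and 9.99 to 20.3 CPM in TBI day 14, with its highest levels in TBI day 1 replicate 2 and TBI day 14 replicate 4. Among the 9 genes, Ifit3 followed the mean of the other 8 most closely (r = 0.909) and Mx1 least (r = 0.632).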

How the data were processed

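Libraries of polyadenylated RNA (stranded, single-end) were made from 14 rats. The authors aligned reads to rn5 with STAR 2.4.2a and used featureCounts 1.5.0 with UCSC annotation. The deposited counts are not normalized, and the strand and multi-mapping settings are not given in the sources used here. The study names a batch correction in its text, but the labels give no batch, so none was modelled. H3K4me3 peak lists were not used, since no gene positions on rn5 were at hand.

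The tests used edgeR 4.0.16 in R 4.3.3 with TMM factors, its filter by group (10 counts or more), a quasi-likelihood model of all 14 samples in which every group had its own mean, and SE as the log2 fold change divided by the square root of F. Log2 CPM had a prior count of 2. Alternatives were limma-voom (limma 3.58.1), the method of the study, DESeq2 1.42.0, median-of-ratios factors, no filter or 10 counts in every sample, only the groups compared, a replicate block, a threshold of 0.01, sham day 14 as baseline, and the omission of each sample. Omitting TBI day 1 replicate 2 and TBI day 14 replicate 4 together was chosen after seeing the data. The fits were checked on simulated counts.

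The members and gene lists were chosen with earlier results of these data known. Genes named are the 9 members, the receptors, kinases, sensors and ligands of the pathway list, the 3 largest called changes within each other role, the 5 genes most like the members, and markers whose levels moved with a result. Some of what this rule covers is not reported here. Others (Cxcl9, and the counts of Cxcl10 and Gbp2 by sample) were chosen after their values were seen. Replicates were separate rats and differed by more than counting noise (chi-squared per degree of freedom 12.9 to 168).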

Additional observations from a re-analysis of the deposited data

Results flagged for a closer look

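In 27 groups of 4 samples (9 genes in 3 groups), the gap between the highest or lowest sample and its nearest neighbour, as a share of the range of CPM, was above Dixon's 95% critical value in 7. Chance gives about 1 in 20 groups where values are normally distributed, which was not checked for CPM. The share over all tested genes was not computed, so 7 of 27 cannot be set against it. The share was 0.982 for Rsad2, 0.939 for Mx2, 0.91 for Irf1 and 0.873 for Mx1 in TBI day 14 replicate 4. In TBI day 1 replicate 2 it was 0.943 for Irf7 and 0.873 for Rsad2, and in sham day 14 replicate 1 it was 0.881 for Rsad2. Values of different genes in 1 library are not independent of each other. Rsad2, the viperin gene, was thus set apart by 1 rat in each of the 3 groups.

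The effect of TBI on Ifitm3 differed between the days, by 2.07 on the log2 scale, in a test of the difference itself by edgeR (adjusted p = 0.01995).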

How the results depend on the processing

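Of 615 values recomputed under the alternatives, 544 kept their direction and side of the threshold, or for a count stayed within 1.5 times. When single samples were omitted, 2 to 5 of the 9 genes were called at day 1, 2 to 7 at day 14, 0 to 1 for the difference between the days, 2 to 4 between TBI day 14 and TBI day 1, and 0 to 1 between the sham groups. For the other pathway genes the numbers were 16 to 41 at day 1 and 26 to 43 at day 14. At an adjusted p-value under 0.01 the counts of the 9 genes were 2 at day 14, 0 for the difference and 1 between TBI days, and 22 and 25 other pathway genes were called at day 1 and day 14. At day 14, limma-voom called 2 of the 9 genes and DESeq2 7. With only the groups compared in the fit, 7 were called at day 14, 2 between TBI days, 1 (Mx1) between the sham groups, and 18 other pathway genes at day 1. Leaving out TBI day 1 replicate 2 and TBI day 14 replicate 4 together gave 2 between TBI days. The difference between the days changed sign without TBI day 14 replicate 4 for Mx1 (0.21), Mx2 (0.042) and Rsad2 (0.43), and without sham day 1 replicate 1 for Mx2 (0.53). The lowest values with 1 sample omitted were −1.05, −1.45 and −1.60 for Mx1, Mx2 and Rsad2. The cause of these changes was not tested.

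Samples share replicate numbers across groups, but correlations of same-numbered samples ran from −0.348 to 0.243 and the labels name no shared batch, so the numbers were not taken to pair rats. With the replicate block, 4 of the 9 genes were called at day 1, 3 at day 14, 1 for the difference, 2 between TBI days and 0 between the sham groups.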

Other observations

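The chemokine gene Cxcl10 and the GTPase gene Gbp2 were highest in TBI day 1 replicate 2 and TBI day 14 replicate 4 of their groups, as Rsad2 was. For Cxcl10 the injured rats had 31, 611, 31 and 27 counts at day 1 and 61, 34, 37 and 231 counts at day 14, and sham rats had 2 to 10. Gbp2 had 662, 4537, 862 and 1373 counts in TBI day 1 and 409, 270, 257 and 720 in TBI day 14. Cxcl9, which interferon gamma induces, had 2, 108, 10 and 44 counts in TBI day 1 and 7, 2, 3 and 7 in TBI day 14. Of the 78 other pathway genes, 43 (55.1%) were highest of their group in TBI day 1 replicate 2 and 58 (74.4%) in TBI day 14 replicate 4, next to 19.6% and 25.0% of all tested genes. In the sham groups, 59 (75.6%) were higher in replicate 1 of day 1 and 41 (52.6%) were highest in replicate 1 of day 14. The shares of all tested genes there were 52.2% and 28.2%.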
